A study of Homo sapiens with 12 samples.

Results

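The transcription factor genes FOS, FOSB, FOSL1, FOSL2, JUN, JUNB, JUND, EGR1, EGR2 and EGR3 were followed in EA.hy 926 endothelial cells kept in low or high folic acid and exposed to the antifolate pemetrexed. These 10 genes were listed by name, as the core AP-1 and EGR families, with earlier results of these data known. Counts of calls among them are therefore a description. Of the 10, 9 had a probe set that the array annotation pairs with 1 gene symbol, among 18417 genes measured in this way. EGR2 was not analysed here. Each of the 9 genes was read by 1 probe set, and the values are log2 expression values, so a difference of 1 is a 2-fold change.

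AP-1 is a dimer of leucine zipper proteins in which a FOS family protein pairs with a JUN family protein, or JUN proteins pair with each other, to bind a short palindromic DNA element. EGR proteins bind GC-rich DNA through zinc fingers. Most of these genes are immediate early genes: their transcription starts within minutes of a growth factor, cytokine or stress signal without new protein synthesis, through kinases of the MAPK family that act on SRF, ELK and CREB or ATF proteins already bound at their promoters. In endothelial cells EGR1 and AP-1 are known for the response to growth factors, shear stress, injury and inflammatory cytokines.

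EA.hy 926 is an established human line, a hybrid of umbilical vein endothelial cells and a lung carcinoma line. Lo cells had been adapted to growth in medium with 23 nM folic acid, and Hi cells were a parallel culture in the same medium supplemented to 9 uM (4 mg/L), both with 10% fetal calf serum. Confluent cultures received fresh medium, and 24 h later 0.5 uM pemetrexed (PMX), which blocks thymidylate synthase and other folate enzymes, was added for 48 h. The 4 groups were Lo PMX, Lo Control, Hi PMX and Hi Control, with 3 biological replicates and 3 arrays each. Each folate level was represented by a single adapted culture of 1 cell line, so a difference between Lo and Hi cells also holds any other difference between those cultures. A 48 h exposure is long against the minutes in which immediate early genes first respond, and no earlier time was analysed here.

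On the array as a whole, 2 control arrays stood apart from their labels. A principal component analysis of all genes put 61.1% of the variance on its first axis. On that axis the Lo PMX arrays scored 30.36 to 32.16, the Lo Control arrays 7.18, 6.75 and -19.27, the Hi PMX arrays -19.9 to -19.51, and the Hi Control arrays -20.05, -17.77 and 8.94. The arrays labelled Lo Control replicate 3 and Hi Control replicate 3 thus lay with the arrays of the opposite folate level. All arrays kept their labels, and many of the results that rest on these 2 arrays are given with and without them. Of 10 endothelial markers, 8 were above at least 80.6% of genes, led by PECAM1 (12.94) and CDH5 (12.55), above 99.3% and 98.7%, while VWF (8.07) and CLDN5 (7.74) were mid-range, above 50.5% and 45.3%. The 5 leukocyte markers lay between PTPRC (4.13), above 1.4% of genes, and TYROBP (8.76), above 60.8%. Of 7 fibroblast and smooth muscle markers, DCN (3.98) was lowest, above 0.9%, COL1A1 (8.30) was above 53.9%, and ACTA2 (11.49) was high, above 94.9%. Of 7 epithelial markers the keratins KRT8 (11.78) and KRT18 (11.74) were high, above 96.4% and 96.2%, and EPCAM (5.64) was above 14.8%. Probe sets differ in brightness for reasons other than the level of a transcript, so these positions are a rough guide.

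The promoters of the 3 genes with the largest rises (EGR1, FOS and FOSB) and of JUN are shown, and some classical elements of immediate early control can be read in them. They are the 250 bases before the annotated start, from RefSeq on GRCh38.p14, where 7 of the 9 measured genes were matched (all but FOSL1 and EGR3). Capitals mark matches, on either strand, to the CArG box bound by SRF, to TGACNTCA or TGACGT, elements and core of the CREB and ATF family, to TGANTCA, the AP-1 element, and to GCGNGGGCG, the EGR element. TGACGT overlaps TGACNTCA where N is G. JUNB rose more than JUN in treated Lo cells (0.59 against 0.46), and its window, not shown, had no match to any of these motifs.
EGR1 promoter, chr5:138465229-138465478, plus strand: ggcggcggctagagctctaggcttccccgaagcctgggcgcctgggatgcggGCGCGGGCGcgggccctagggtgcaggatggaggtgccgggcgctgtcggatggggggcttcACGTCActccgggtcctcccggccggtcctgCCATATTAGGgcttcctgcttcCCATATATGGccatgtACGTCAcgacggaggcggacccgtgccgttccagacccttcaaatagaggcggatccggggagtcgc
FOS promoter, chr14:75278578-75278827, plus strand: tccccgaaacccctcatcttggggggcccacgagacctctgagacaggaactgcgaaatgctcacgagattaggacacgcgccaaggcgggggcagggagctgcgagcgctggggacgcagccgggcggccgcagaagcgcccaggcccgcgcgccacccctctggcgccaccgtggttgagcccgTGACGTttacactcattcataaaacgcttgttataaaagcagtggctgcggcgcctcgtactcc
FOSB promoter, chr19:45467746-45467995, plus strand: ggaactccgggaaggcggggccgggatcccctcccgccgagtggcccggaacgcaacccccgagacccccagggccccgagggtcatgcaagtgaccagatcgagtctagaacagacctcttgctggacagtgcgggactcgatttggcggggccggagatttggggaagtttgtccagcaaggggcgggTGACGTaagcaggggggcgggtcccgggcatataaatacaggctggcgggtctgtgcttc
JUN promoter, chr1:58784048-58784297, minus strand: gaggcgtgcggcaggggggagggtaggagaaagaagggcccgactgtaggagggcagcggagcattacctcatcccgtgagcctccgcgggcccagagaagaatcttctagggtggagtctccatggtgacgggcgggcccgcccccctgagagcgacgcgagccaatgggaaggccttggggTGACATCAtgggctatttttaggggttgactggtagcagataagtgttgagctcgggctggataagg

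The EGR1 window held 2 CArG boxes, at 105 to 96 and 83 to 74 bases before the start, a TGACGT on the reverse strand at 136 to 131 and at 67 to 62, and an EGR element at 198 to 190. In the FOS window TGACGT stood at 64 to 59 bases before the start, in the FOSB window at 60 to 55 and in the FOSL2 window at 66 to 61. The JUN window held TGACNTCA at 67 to 60. In the JUND window TGACNTCA stood at 200 to 193 and a further TGACGT at 87 to 82, and the JUNB window had no match to any of the 5 motifs. Of 35116 promoter windows of the same length, 1.16% held a CArG box, 6.87% TGACNTCA, 7.1% TGACGT, 6.57% TGANTCA and 8.41% GCGNGGGCG. A match is a description of the letters, and the array gives no measure of binding at them. Sites further than 250 bases before the start were not searched, so a window without a match does not mean a gene without the element.

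Lo PMX and Lo Control arrays were compared to ask what pemetrexed did to these genes in cells short of folate. EGR1, FOSB, FOS, JUNB and JUN rose, and FOSL1, FOSL2, JUND and EGR3 did not pass the test. The 5 genes of 9 that rose stand against 5.6% of all 18417 genes called higher in this comparison, and 0 of 9 fell, against 5.14% called lower (limma, Benjamini-Hochberg adjusted p under 0.05 over all genes). Without the 2 arrays out of place the same 5 rose, against 5.21% of all genes. The median difference of the 9 was 0.46, and that of all genes was 0.02. In RNA from whole cultures a change in each cell and a change in the share of cells that express a gene cannot be told apart.

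EGR1, a zinc finger activator of growth factor, cytokine and coagulation genes (chr5:138465479-138469303), changed most. Its values were 11.58, 11.44 and 11.88 on the Lo PMX arrays, against 9.94, 9.80 and 9.03 on the Lo Control arrays. All treated arrays lay above all control arrays, and the lowest control was the array labelled Lo Control replicate 3, one of those out of place. The difference was 2.04 ± 0.28 (SE), a 4.12-fold rise with a 95% confidence interval of 1.44 to 2.65 on the log2 scale (limma, adjusted p = 0.000607). Without the 2 arrays out of place it was 1.76 ± 0.13, or 3.39-fold (limma, adjusted p = 1.02e-05).

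FOSB and FOS, the AP-1 subunits with strong activation domains that cannot pair with themselves, rose about 2-fold. FOSB (chr19:45467996-45475179) stood at 8.81, 8.70 and 8.98 on the Lo PMX arrays, against 7.67, 7.59 and 7.55 on the Lo Control arrays. The treated and control values were more than 1 log2 unit apart, and the spread within each group was small (SD 0.14 in Lo PMX and 0.06 in Lo Control, n = 3 each). The difference was 1.23 ± 0.10 (SE), or 2.34-fold, with a 95% confidence interval of 1.02 to 1.44 (limma, adjusted p = 1.48e-05).

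FOS (chr14:75278828-75282230) had 8.85, 8.70 and 9.22 on the Lo PMX arrays, against 7.97, 7.81 and 7.73 on the Lo Control arrays. Here too the groups did not overlap, with Lo PMX replicate 3 the highest, as it was for EGR1 and FOSB. Its mean differed by 1.09 ± 0.13 (SE), or 2.13-fold, with a 95% confidence interval of 0.80 to 1.37 (limma, adjusted p = 0.000248). Leaving out the 2 arrays gave differences of 1.20 ± 0.10 for FOSB and 1.03 ± 0.14 for FOS.

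**Figure D1:**
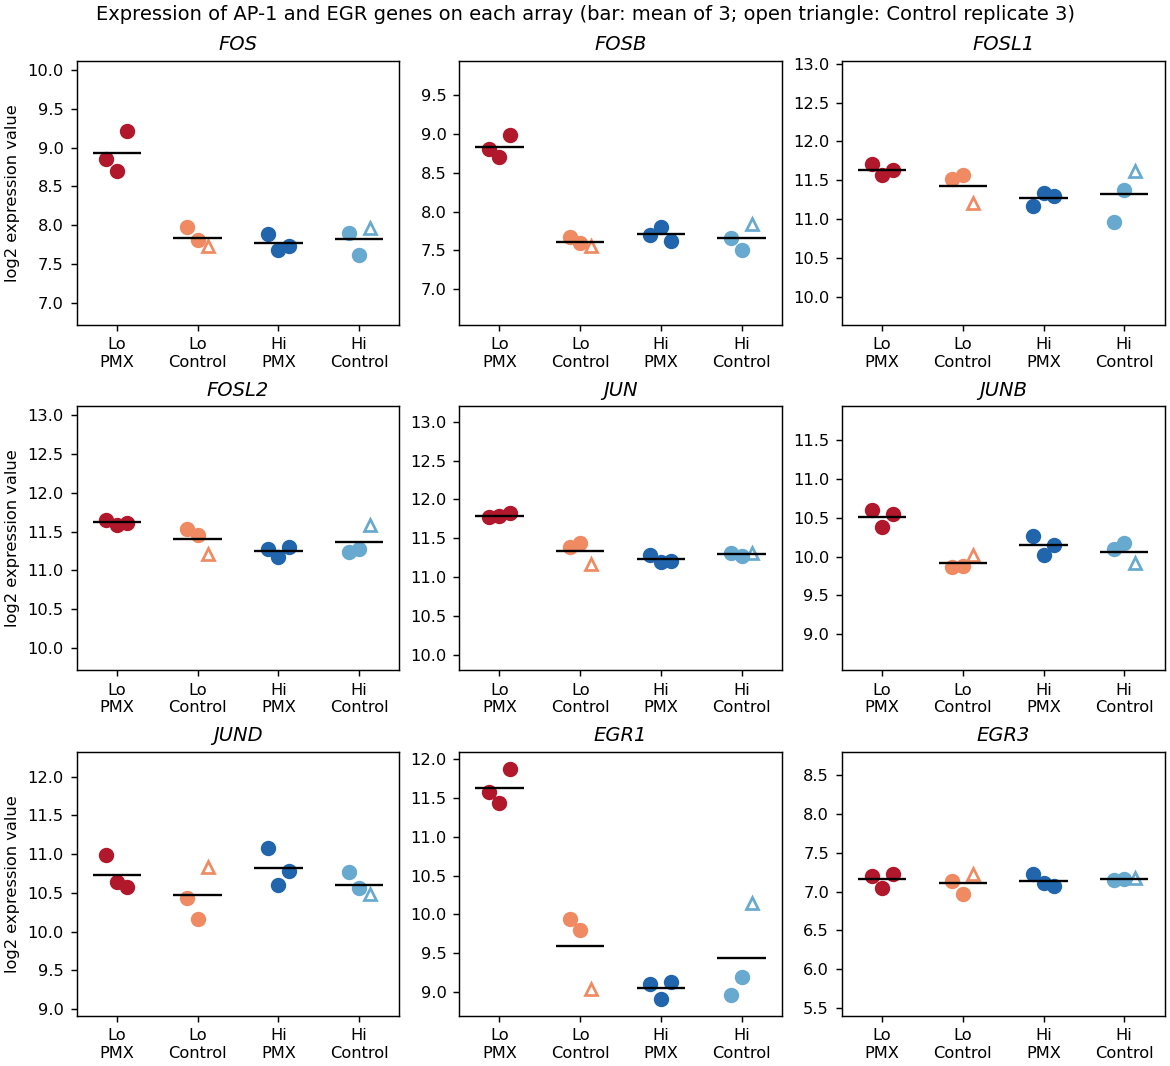
Log2 expression value (vertical axis, the same span in every panel) of the 9 measured genes on each of the 12 arrays, by group, with the group mean as a bar and Control replicate 3 as an open triangle. FOS and FOSB are high on the 3 Lo PMX arrays alone. EGR1 is highest there, with 9.94 and 9.80 on Lo Control replicates 1 and 2 and 10.15 on Hi Control replicate 3. On the remaining arrays EGR1 lies between 8.92 and 9.19. JUN and JUNB are higher on the Lo PMX arrays by 0.46 and 0.59 than in Lo Control on average, and EGR3 lies between 6.97 and 7.23 throughout.

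The JUN genes, whose proteins form the other side of the AP-1 dimer, rose less. JUN (chr1:58780791-58784047), the main transactivating partner, stood at 11.77, 11.78 and 11.83 on the Lo PMX arrays, against 11.38, 11.44 and 11.17 on the Lo Control arrays. Its difference was 0.46 ± 0.07 (SE), or 1.38-fold (limma, adjusted p = 0.00171). JUNB (chr19:12791486-12793315), a weaker activator that can restrain JUN, had 10.60, 10.38 and 10.55 on the Lo PMX arrays, against 9.87, 9.88 and 10.02 on the Lo Control arrays. It differed by 0.59 ± 0.09 (limma, adjusted p = 0.00165). For both genes every treated array was above every control array.

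JUND, FOSL1, FOSL2 and EGR3 gave no call in treated Lo cells. JUND (chr19:18279694-18281622), a JUN protein that is less inducible and is abundant in resting cells, had 10.99, 10.64 and 10.58 on the Lo PMX arrays, against 10.43, 10.16 and 10.84 on the Lo Control arrays, and the groups overlapped because of the array labelled Lo Control replicate 3. The difference was 0.26 ± 0.17 (limma, adjusted p = 0.418). In the fit that left out the 2 arrays JUND differed by 0.44 ± 0.15 (limma, adjusted p = 0.0978). Adding a block for the replicate number to that fit gave 0.49 ± 0.08 (limma, adjusted p = 0.00144), which is past the threshold, where 8.39% of all genes were called higher.

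FOSL1 and FOSL2 encode the FRA proteins, FOS relatives that lack the strong activation domain. FOSL1 (chr11:65892049-65900545) had 11.71, 11.57 and 11.63 on the Lo PMX arrays, against 11.52, 11.57 and 11.21 on the Lo Control arrays. FOSL2 (chr2:28392858-28417317) had 11.66, 11.59 and 11.62 on the Lo PMX arrays, against 11.54, 11.46 and 11.21 on the Lo Control arrays. In both genes the groups just failed to overlap, and the array out of place was the lowest control.

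The differences were 0.21 ± 0.14 for FOSL1 (95% confidence interval -0.11 to 0.52, limma adjusted p = 0.451) and 0.22 ± 0.10 for FOSL2 (-0.01 to 0.44, limma adjusted p = 0.229). Without the 2 arrays out of place they were 0.09 ± 0.11 for FOSL1 and 0.12 ± 0.07 for FOSL2. EGR3 (chr8:22687659-22693480), a zinc finger relative of EGR1, lay at 7.20, 7.05 and 7.23 on the Lo PMX arrays, against 7.14, 6.97 and 7.23 on the Lo Control arrays. Its difference of 0.05 ± 0.08 had a 95% confidence interval of -0.13 to 0.23, so a 2-fold change lay outside the interval for each of these 4 genes. Counting arrays alone, 7 of the 9 genes had treated and control Lo arrays that did not overlap in the upward direction, against 15.7% of all genes.

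Markers of cell identity were read on the same arrays. Of 10 endothelial markers, 4 fell (CDH5, TEK, ERG and EGFL7) and 0 rose in treated Lo cells, against 5.14% of all genes called lower. With the 2 arrays left out 5 fell and 0 rose, against 5.74% called lower. The mean over the 10 ranged from 9.89 to 10.01 on Lo PMX arrays, against 10.27 to 10.94 on Lo Control arrays. No gene passed among 7 epithelial, 5 leukocyte or 7 fibroblast and smooth muscle markers, against 5.6% of all genes called higher and 5.14% lower. Their array means were 7.87 to 7.90, 6.55 to 6.57 and 7.04 to 7.11 on Lo PMX arrays, against 7.83 to 7.93, 6.42 to 6.54 and 6.97 to 7.03 on Lo Control arrays. Without the 2 arrays, 5 of the 10 endothelial markers were lower in Lo Control than in Hi Control, against 3.5% of all genes. The part of the endothelial markers' fall in the AP-1 and EGR values was not tested.

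Hi PMX against Hi Control arrays asked the same of folate-replete cells. None of the 9 genes passed, and neither did any other gene (0% of 18417 called by limma, 266 at an unadjusted p under 0.05, of which 0 were among the 9). EGR1 had 9.11, 8.92 and 9.13 on the Hi PMX arrays, against 8.95, 9.19 and 10.15 on the Hi Control arrays, with the array labelled Hi Control replicate 3 the highest. Its difference was -0.38 ± 0.28 with a 95% confidence interval of -0.99 to 0.22, and without the 2 arrays out of place it was -0.02 ± 0.13, with an interval of -0.30 to 0.25. That fit too called 0 of the 9 genes and 0% of all genes (limma, 335 at an unadjusted p under 0.05).

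For FOS the Hi PMX values were 7.89, 7.69 and 7.73, against 7.90, 7.61 and 7.96 in Hi Control, a difference of -0.06 ± 0.13 (95% confidence interval -0.34 to 0.22). FOSB had 7.70, 7.80 and 7.63 in Hi PMX, against 7.66, 7.50 and 7.84 in Hi Control, a difference of 0.05 ± 0.10 (-0.17 to 0.26). Treated and control Hi arrays overlapped for all 9 genes, as for most genes. Of all genes, 2.48% had treated Hi arrays all above the controls and 2.96% all below. JUN (-0.07 ± 0.07), JUNB (0.08 ± 0.09), JUND (0.22 ± 0.17), FOSL1 (-0.05 ± 0.14), FOSL2 (-0.11 ± 0.10) and EGR3 (-0.03 ± 0.08) differed by less than the spread allows to be called. The widest of the 9 intervals reached 0.99 in size on the log2 scale, that of EGR1, and the next widest 0.59, that of JUND.

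Whether Lo cells responded otherwise than Hi cells was tested as an interaction, the change in Lo cells minus the change in Hi cells. It was positive and past the threshold for EGR1 (2.42 ± 0.39, limma adjusted p = 0.00511), FOSB (1.18 ± 0.14, adjusted p = 0.000708), FOS (1.15 ± 0.19, adjusted p = 0.00477), JUN (0.53 ± 0.11, adjusted p = 0.0142) and JUNB (0.50 ± 0.13, adjusted p = 0.0488). These 5 of 9 stand against 2.57% of all genes called with a positive interaction. FOSL2 (0.33 ± 0.15), FOSL1 (0.26 ± 0.20), EGR3 (0.08 ± 0.12) and JUND (0.04 ± 0.24) did not pass. The same 5 were called without the 2 arrays, against 2.02% of all genes. In that fit the interaction of EGR1 was 1.78 ± 0.18 (limma, adjusted p = 0.000351), a ratio of 3.45-fold against 5.36-fold with all arrays. Those of FOSL2 and FOSL1 fell there to 0.12 ± 0.10 and -0.002 ± 0.16. Those of JUND and EGR3 were 0.28 ± 0.22 and 0.13 ± 0.12. The call of JUNB lay at the threshold and was lost in 11 of 21 alternative fits (limma, adjusted p from 0.00547 to 0.119 over all of them).

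**Figure D2:**
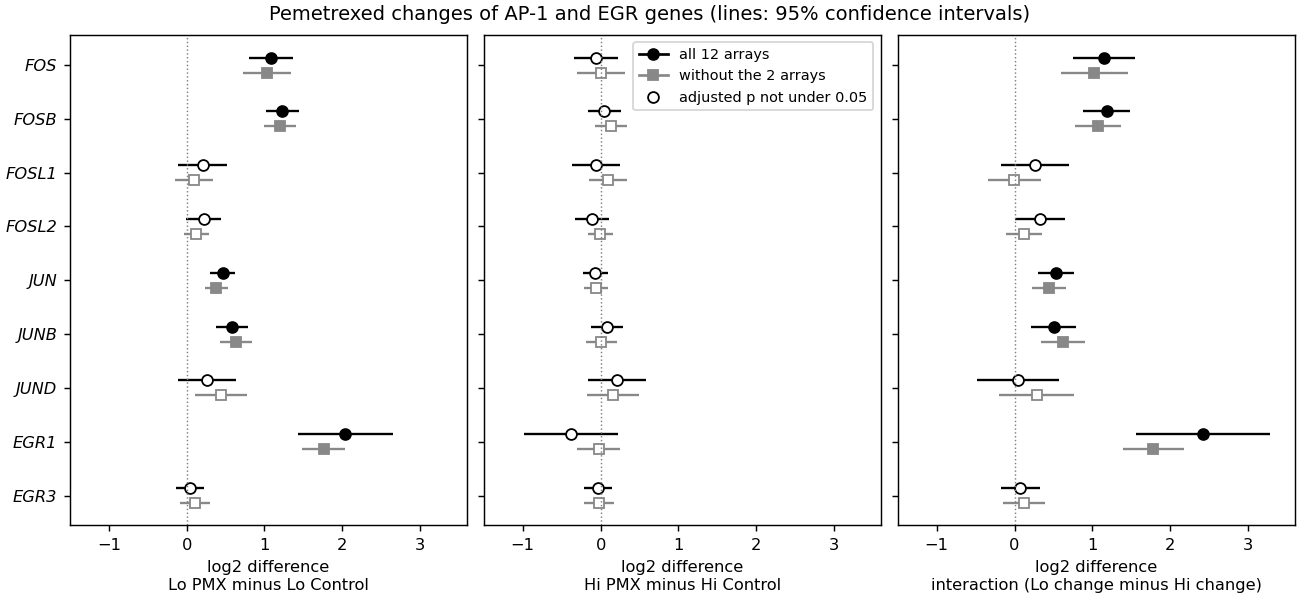
Log2 difference with its 95% confidence interval (horizontal axes) for each gene: Lo PMX minus Lo Control, Hi PMX minus Hi Control, and the interaction, from all 12 arrays (black circles) and without the 2 control arrays out of place (grey squares), with open symbols where the adjusted p was not under 0.05. EGR1, FOSB, FOS, JUN and JUNB lie right of 0 in the left and right panels, and all 9 intervals of the middle panel include 0.

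Treated cells of both folate levels were then set against each other, Lo PMX against Hi PMX, a comparison that uses none of the control arrays in its means. EGR1 was higher in Lo PMX by 2.58 ± 0.28, or 5.99-fold (limma, adjusted p = 8.95e-05), FOS by 1.16 ± 0.13, or 2.23-fold (adjusted p = 0.000116), and FOSB by 1.12 ± 0.10, or 2.18-fold (adjusted p = 2.45e-05). JUN (0.57 ± 0.07), FOSL2 (0.37 ± 0.10) and JUNB (0.37 ± 0.09) were higher as well (limma, adjusted p = 0.000312, 0.0224 and 0.0142). These 6 of 9 stand against 11.3% of all genes called higher, and 0 of 9 were lower, against 11% called lower. This comparison and the one of Lo PMX with Lo Control share the Lo PMX arrays, so they are not independent of each other.

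Endothelial markers moved with this comparison, and 9 of 10 were lower in Lo PMX and 0 higher, with a median difference of -0.87, against 11% of all genes called lower. Their array means were 9.89 to 10.01 in Lo PMX, against 10.88 to 11.08 in Hi PMX. Among the other markers, EPCAM of the 7 epithelial and ACTA2 of the 7 fibroblast and smooth muscle ones were called higher. None was called lower, and 0 of the 5 leukocyte markers were called. Of all genes, 11.3% were called higher and 11% lower here. The part of these markers in the AP-1 and EGR differences was not tested.

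JUN had 11.77 to 11.83 on the Lo PMX arrays, against 11.28, 11.20 and 11.21 on the Hi PMX arrays, and JUNB 10.38 to 10.60, against 10.27, 10.02 and 10.15. FOSL2 stood at 11.59 to 11.66 in Lo PMX, against 11.28, 11.17 and 11.31 in Hi PMX, and FOSL1 at 11.57 to 11.71, against 11.17, 11.34 and 11.29. Neither gene's groups overlapped, and 7 of the 9 genes had Lo PMX arrays all above the Hi PMX arrays, against 18.6% of all genes. FOSL1 differed by 0.37 ± 0.14 (limma, adjusted p = 0.0847), and passed when the spread was estimated without the 2 arrays out of place (0.37 ± 0.10, limma adjusted p = 0.0144), which made 7 of 9 against 13.7% of all genes. The FOSL2 call was lost when any of the Lo PMX arrays or Hi PMX replicate 2 was left out, and the JUNB call without Lo PMX replicates 1 or 3 or Hi PMX replicate 2 (limma, adjusted p up to 0.0842 and 0.0652). JUND (-0.08 ± 0.17; 10.58 to 10.99 in Lo PMX, against 11.08, 10.60 and 10.78 in Hi PMX) and EGR3 (0.02 ± 0.08; 7.05 to 7.23, against 7.23, 7.11 and 7.07) overlapped between the groups.

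Low folate alone was examined by Lo Control against Hi Control arrays, the comparison that both arrays out of place enter. With all arrays 0 of the 9 genes and 0% of all genes were called (limma, 387 genes at an unadjusted p under 0.05, 0 of them among the 9). On the other arrays EGR1 was higher in Lo Control, at 9.94 and 9.80, against 8.95 and 9.19 in Hi Control, a difference of 0.80 ± 0.14 or 1.74-fold (limma, adjusted p = 0.0039). It was the 1 gene of 9 called higher, against 3.67% of all genes, and 0 were called lower, against 3.5%. The 2 arrays were left out because they lay with the opposite folate level, a choice that itself favours a difference in this comparison. Its p-values from fits without them, with or without a replicate block, carry that limit. In the other comparisons the same choice enters the shared estimate of spread, so p-values from those fits depend on it too. The 2 arrays left out had 9.03 (labelled Lo Control) and 10.15 (labelled Hi Control), the first between the 2 Hi Control values kept and the second above both Lo Control values kept.

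Of the other 8 members, 0 passed in that fit. There FOSL1 differed by 0.37 ± 0.12 (limma, adjusted p = 0.1), FOSL2 by 0.24 ± 0.08 (adjusted p = 0.105), JUNB by -0.26 ± 0.10 (adjusted p = 0.183) and JUND by -0.37 ± 0.17 (adjusted p = 0.284). A block for the replicate number added to that fit brought 2 more past the threshold: FOSL1 (0.37 ± 0.11, limma adjusted p = 0.043) and JUND (-0.37 ± 0.09, adjusted p = 0.0142), while 6.73% of all genes were called higher and 6.42% lower. FOSL2 (limma adjusted p = 0.0501) and JUNB (adjusted p = 0.0865) did not pass. FOS (0.13 ± 0.15) and FOSB (0.05 ± 0.11) were near 0 in that comparison.

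**Figure D3:**
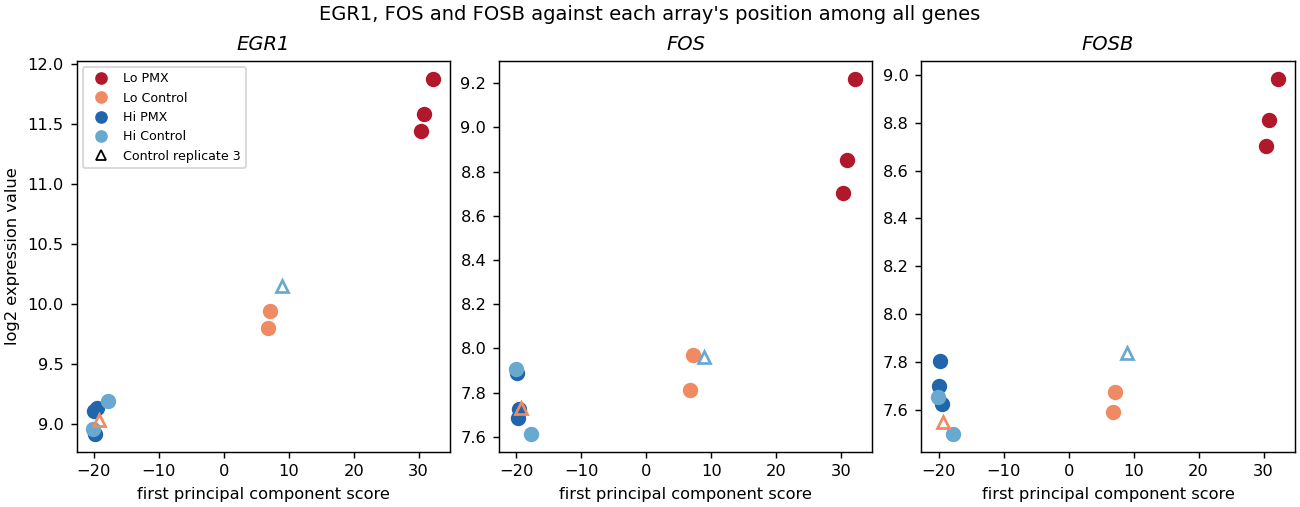
Log2 expression value of EGR1, FOS and FOSB (vertical axes) on each array against that array's score on the first principal component of all genes (horizontal axes), coloured by group, with Control replicate 3 as an open triangle. EGR1 has 3 levels along the axis, with the 2 triangles beside arrays of the opposite folate level, while FOS and FOSB are high only on the 3 Lo PMX arrays and between 7.50 and 7.97 on the other 9.

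Likeness of pattern across the 12 arrays was measured as the root mean square difference between the log2 values of a pair of genes after each gene's own mean was subtracted, as a description with no test. FOSL1 and FOSL2 were the closest of the 36 pairs (0.11 log2 units) and FOS and FOSB the next (0.11), although FOS and FOSB lie on different chromosomes. JUN was closest to FOSL2 (0.13) and JUNB to JUN (0.17). EGR3 was closest to FOSL2 (0.19) and JUND to EGR3 (0.20). The measure is not scaled to a gene's own spread. EGR3 varied little (6.97 to 7.23), so its distances mostly reflect the spread of the other gene and show no shared pattern. EGR1 lay 0.60 or more from every other member.

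Among genes outside the family, the most like EGR1 were SAT1, a polyamine acetyltransferase, at 0.14, DDIT3, a stress-induced leucine zipper factor, at 0.15, and the complement gene C3 at 0.17, against a root mean square of 1.06 for EGR1 about its own mean. Those 3 genes rose in treated Lo cells by 1.95 ± 0.31, 2.06 ± 0.24 and 1.86 ± 0.30. Rises near that of EGR1 follow from the choice of these genes by likeness on the same arrays. FOS was most like the cytokine gene IL32 (0.11), ZNF654 (0.14) and the kinase gene MAK (0.14), and FOSB most like the adhesion gene NECTIN4 (0.12), the receptor gene TNFRSF9 (0.13) and ARC (0.13). In the 10 arrays left without those out of place the 3 nearest genes of EGR1 were the same, IL32 and ZNF654 were again the nearest of FOS, and NECTIN4 and ARC those of FOSB.

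Genes that work with these factors were described by lists. Of 11 measured AP-1 dimer partners of the ATF, BATF, JDP and MAF families, 2 rose and 0 fell in treated Lo cells, against 5.6% of all genes called higher and 5.14% lower, with a median of 0.09. The same 2 were called without the 2 arrays out of place. ATF3, a leucine zipper factor of the stress response, had 8.25 to 8.42 on the Lo PMX arrays, against at most 7.34 on the Lo Control arrays, a rise of 1.10 ± 0.11 (limma, adjusted p = 6.12e-05). MAFG, a small MAF protein that partners NRF2, rose by 0.39 ± 0.11 (limma, adjusted p = 0.0365), a call lost in 6 alternative fits. BATF2 (0.31 ± 0.10, limma adjusted p = 0.0568) did not pass there, and was higher in Lo PMX than in Hi PMX by 0.36 ± 0.10 (limma, adjusted p = 0.0162). The other 8 partners, ATF2 and ATF4 among them, lay between -0.18 and 0.12.

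The EGR relatives and corepressors gave 0 calls among 4 genes in treated Lo cells, against 5.6% of all genes called higher and 5.14% lower. Their median was -0.07. NAB1 and NAB2, which bind EGR1 and repress its activity, had differences of -0.32 ± 0.19 and -0.16 ± 0.10 (limma, adjusted p = 0.348 and 0.383). Between treated cells both were lower in Lo PMX than in Hi PMX, NAB1 by -0.69 ± 0.19 (8.06 to 8.16 against 8.79 to 8.85) and NAB2 by -0.31 ± 0.10 (8.98 to 9.13 against 9.26 to 9.48), with limma adjusted p = 0.0183 and 0.0432. These 2 of 4 stand against 11% of all genes called lower. The NAB2 call was lost in 10 alternative fits and the NAB1 call in 2. Without the 2 arrays out of place NAB1 was also called lower in Lo Control than in Hi Control, 1 of 4 against 3.5% of all genes. EGR4 (0.10 ± 0.10) and WT1 (0.02 ± 0.11) did not pass in treated Lo cells.

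Of 20 upstream kinases and promoter-bound factors, 3 rose and 4 fell in treated Lo cells, against 5.6% of all genes called higher and 5.14% lower, with a median of -0.13. RPS6KA1, an ERK-activated ribosomal S6 kinase, rose by 1.09 ± 0.13 (10.08, 10.30 and 9.91 on Lo PMX arrays, against 9.11, 9.17 and 8.75 on Lo Control arrays; limma adjusted p = 0.00027). Its relative RPS6KA2 fell by 1.09 on the log2 scale (SE 0.31; 8.42, 8.54 and 8.44, against 9.15, 9.18 and 10.34; limma adjusted p = 0.0382). The highest of those RPS6KA2 controls is the array out of place, and without both such arrays the fall was 0.70 (SE 0.08, limma adjusted p = 0.000131). The p38 kinase activators MAP2K3 (0.46 ± 0.10) and MAP2K6 (-0.49 ± 0.12) moved in opposite directions, and the SRF coactivator MRTFB (-0.41 ± 0.10) and the JNK gene MAPK9 (-0.31 ± 0.09) fell, MAPK9 no longer past the threshold without the 2 arrays (limma, adjusted p = 0.0505). MAP2K1, an ERK activator named here after its value was seen, also rose (0.35 ± 0.10, limma adjusted p = 0.0486), a call lost without the 2 arrays. That fit again called 3 higher and 4 lower, with MAPK10 and RPS6KA3 in place of MAP2K1 and MAPK9. SRF itself (0.21 ± 0.07), CREB1 (-0.21 ± 0.10) and ELK1 (-0.03 ± 0.08) did not pass.

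Of 20 other immediate early genes, 8 rose and 0 fell in treated Lo cells, with a median of 0.32, against 5.6% of all genes called higher and 5.14% lower. Leaving out the 2 arrays, 10 rose and 0 fell, against 5.21% and 5.74%. The 6 with the smallest p were KLF4 (0.64 ± 0.06), ARC (1.10 ± 0.12), RHOB (0.65 ± 0.09), NR4A3 (0.55 ± 0.07), the small GTPase gene GEM (1.11 ± 0.16) and NR4A1 (0.65 ± 0.10). ARC, best known as a synaptic protein, had 9.67, 9.58 and 9.68 on the Lo PMX arrays, against 8.67, 8.53 and 8.44 on the Lo Control arrays. Several classical immediate early genes did not pass there, IER2 (0.05 ± 0.13), ZFP36 (0.08 ± 0.18), NR4A2 (0.03 ± 0.14), KLF2 (0.09 ± 0.12), KLF10 (-0.03 ± 0.13) and IER3 (-0.30 ± 0.12) among them, and were chosen as examples after their values were seen.

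Of 28 genes described elsewhere as targets of AP-1 or EGR1, 8 rose and 0 fell in treated Lo cells, with a median of 0.26, against 5.6% of all genes called higher and 5.14% lower. Leaving out the 2 arrays, 12 rose and 0 fell, against 5.21% and 5.74%. The angiogenic factor VEGFA rose by 0.85 ± 0.10, the cytokines LIF by 1.36 ± 0.20 and IL11 by 1.21 ± 0.17, the adhesion receptor ICAM1 by 0.75 ± 0.12, and the matrix proteases MMP3 by 0.60 ± 0.10 and MMP9 by 0.39 ± 0.09. VEGFA stood at 9.36, 9.27 and 9.44 on the Lo PMX arrays, against 8.64, 8.54 and 8.33 on the Lo Control arrays. The other 20 did not pass, including F3 (0.09 ± 0.09), PLAU (-0.08 ± 0.19), CCND1 (-0.10 ± 0.07), TGFB1 (0.01 ± 0.13) and PDGFA (0.05 ± 0.10), which were near 0. CXCL8 (1.13 ± 0.38), PTGS2 (1.02 ± 0.34) and IL6 (0.75 ± 0.31) were larger and more variable, and were called without the 2 arrays. The largest fall was that of PDGFB (-0.33 ± 0.12), also not called. All these uncalled examples were named after their values were seen. In Hi cells 0 genes of any of these lists were called, against 0% of all genes. Between untreated cultures, the fit without the 2 arrays called 10 of the 28 targets higher and 1 lower in Lo Control. Of the 20 other immediate early genes it called 4 higher and 5 lower, against 3.67% and 3.5% of all genes. Leaving out those arrays favours a difference in this comparison, and with all arrays 0 genes were called in it.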

How the data were processed

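RNA of 12 EA.hy 926 cultures was measured on Affymetrix arrays, per the labels' protocols. The authors deposited 1 log2 value per probe set and array, from RMA in Partek 6.5, per the submitters' processing notes. No detection call or background signal was used. The settings of RMA and the exons read by the probes are not given in the sources used here. Array medians lay between 7.24 and 7.33. Precision is limited by the number of arrays.

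Of 33297 probe sets, the annotation gave a single symbol for 19460, more than one for 1754 and none for 12083. Of the 19460 Entrez identifiers 19429 were found among RefSeq genes of GRCh38.p14, which gave current symbols. Where several probe sets read a gene (769 genes), the one with the highest mean was kept, leaving 18417 genes. The deposited log2 values were not normalized or filtered further.

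The 4 group means were estimated together from the 12 arrays with limma 3.58.1 (lmFit, then eBayes) under R 4.3.3, which left 8 residual degrees of freedom. Tests were two-sided with Benjamini-Hochberg adjustment over all genes in each of 5 comparisons, and a gene was called at an adjusted p under 0.05. Values after ± are standard errors unless marked SD. All replicates are cultures of 1 cell line, and p-values reflect the spread among those cultures. The fit was tested on simulated data. Alternatives were another array set, replicate block, normalization, filter, probe set choice, variance model and array weights.

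The family, the related lists and the alternative without 2 control arrays were chosen with earlier results of these data known. Text names all members, of each other list up to 6 genes called in treated Lo cells, by rising p, those called elsewhere where 5 or fewer, and the 3 genes most like each member that changed by at least 1. In all 12 arrays the deviations of same-numbered arrays from their group means correlated from -0.656 to 0.514 across genes (11 of 18 pairs above 0.1), and without the 2 arrays from 0.115 to 0.543 (13 of 13). Block fits of single genes are therefore given by themselves only without them. Ranges over alternative fits and the closing counts also hold the block with all 12 arrays.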

Additional observations from a re-analysis of the deposited data

Results flagged for a closer look

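The response to pemetrexed differed between Lo and Hi cells for several of the genes described, by the test of the difference itself (limma, adjusted p under 0.05). Among the AP-1 and EGR genes the interaction was 2.42 for EGR1, 1.18 for FOSB, 1.15 for FOS, 0.53 for JUN and 0.5 for JUNB. In each of these 5 the Lo PMX arrays lay above all Lo Control arrays, while Hi PMX and Hi Control arrays overlapped. FOSL1 and FOSL2, whose interaction did not pass, had the same arrangement. Of all genes, 15.7% had Lo PMX arrays all above the Lo Control arrays, and 2.57% were called with a positive interaction. In Hi cells 2.48% of all genes had treated arrays all above the controls and 2.96% all below. Among the related genes the interaction was 1.35 for ATF3 and 1.24 for RPS6KA1. Of other immediate early genes, ARC had 1.32, GEM 1.3, RHOB 0.76, NR4A1 0.74, KLF4 0.52 and NR4A3 0.48. Of genes described as targets, LIF had 1.61, IL11 1.34, VEGFA 1.04, ICAM1 0.71 and MMP3 0.6. The call of MMP3 was lost without the 2 arrays out of place (limma, adjusted p = 0.086), and those of JUNB, NR4A3 and ICAM1 when certain single arrays were left out (limma, adjusted p up to 0.119, 0.0677 and 0.0807). Groups of 3 arrays are too small for a test of single outlying arrays.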

How the results depend on the processing

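The calls of FOS, FOSB, JUN, JUNB and EGR1 in treated Lo cells and the interactions of all but JUNB kept their direction and their side of the threshold under every alternative run (EGR1 1.68 to 2.21, FOSB 1.15 to 1.29, FOS 0.94 to 1.20, JUN 0.38 to 0.51 and JUNB 0.54 to 0.65 in treated Lo cells). FOSB and EGR3, below the median level, have no value under the filter on dim genes. The counts over all genes moved more. When single arrays were left out, 1170 to 2563 genes were called in Lo PMX against Lo Control, 0 to 0 in Hi PMX against Hi Control, 0 to 0 in Lo Control against Hi Control, 2855 to 4607 in Lo PMX against Hi PMX and 443 to 956 in the interaction. The count in treated Lo cells was 1282 without Lo PMX replicate 1, 1170 without Lo PMX replicate 3 and 1210 without Lo Control replicate 3. The interaction count was 568, 584 and 443 without Lo PMX replicates 1, 2 and 3, 572 without Lo Control replicate 3, and 506 and 539 without Hi PMX replicates 2 and 3. Without both arrays out of place 1320 genes were called between untreated cultures. With the replicate number as a block the counts with all 12 arrays were 2248, 0, 0, 4492 and 994 in the same order, against 1978, 0, 0, 4107 and 886 without it. The block in the fit without both arrays called 3385 genes in treated Lo cells, 0 in treated Hi cells, 2422 between untreated and 6554 between treated cultures, and 1738 in the interaction. The cause was not tested. Background correction and scan batches need scanner files, which were not used here.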
